A study of Mus musculus with 4 samples.

Results

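RNA levels of the glutathione transferases and of the enzymes that clear reactive aldehydes and carbonyls were compared between a non-pigmented and a pigmented mouse melanocyte line. The members were the genes whose symbol belongs to the aldehyde dehydrogenase (Aldh), aldo-keto reductase (Akr), carbonyl reductase (Cbr), cytosolic and mitochondrial glutathione transferase (Gst) or microsomal glutathione transferase (Mgst) families, read from probe sets annotated with exactly 1 symbol. They made up 62 of the 18193 genes on the array and 98 of its 45037 probe sets. By family there were 20 Aldh, 15 Akr, 4 Cbr, 20 Gst and 3 Mgst genes. The rule uses symbols and no measured value, but it was chosen with earlier results of these data known. A filter on dim probe sets left 42 of them among the 12558 genes tested, and the other 20 members are described by their signals.

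The non-pigmented line carried a homozygous point mutation of the tyrosinase gene, and the pigmented line was wild type there because that mutation had been corrected. Both lines had the Balb/c background, were labelled as melanocytes of the skin, and were grown in RPMI 1640 with FCS, the thiol reductant 2-mercaptoethanol and the phorbol ester TPA. Total RNA of each line was measured on 2 Affymetrix arrays, 4 arrays in all. Whether the 2 arrays of a line stem from separate cultures, and how many clones a line held, is not in the labels. The p-values therefore cover the scatter among these 4 arrays alone, part or all of which may be technical.

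Glutathione transferases join the thiol glutathione to electrophiles, and the conjugates are pumped out of the cell and trimmed to mercapturates. Aldehyde dehydrogenases oxidise aldehydes to acids, among them retinaldehyde to retinoic acid, whereas aldo-keto and carbonyl reductases reduce aldehydes and ketones to alcohols. Melanocytes make melanin through reactive quinone intermediates that bind thiols.

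The arrays were scaled by the authors to a common mean, and the median probe set signal was 99.7 to 111 in non-pigmented and 126 to 130 in pigmented arrays. Gapdh control probe sets at the 3′ and 5′ ends, whose ratio tracks RNA integrity, gave a ratio of 0.903 in non-pigmented replicate 1 and 20.2 in non-pigmented replicate 2, against 0.864 in pigmented replicate 1 and 16.8 in pigmented replicate 2. Each line thus had 1 array with a low and 1 with a high ratio, and the 2 dates in the titles paired the arrays the other way. Of 12 melanocyte markers tested, 9 were called lower in non-pigmented cells, where their summed signal was 15923 to 27203, against 152498 to 164645 in pigmented cells. Sox10, a neural crest and melanocyte factor, was near level, at 8268 and 8558 in non-pigmented and 8602 and 10232 in pigmented arrays. Of 8 tested markers of Schwann cells and neural crest progenitors, 5 were called higher in non-pigmented cells, and the summed signal of the 9 on the array was 22761 to 27736 there, against 2561 to 3555 in pigmented cells. Among other markers, limma called 1 of 4 for keratinocytes, Krt10, which was higher in non-pigmented cells. It called 0 of 5 for fibroblasts, 0 of 4 for immune cells, 0 of 1 for endothelium and 0 of 3 for muscle. In that order, 2, 1, 0, 0 and 2 of them had an unadjusted p under 0.05. Over all tested genes, 3.36% were called and 13.8% had an unadjusted p under 0.05. Of the uncalled keratinocyte markers, Pkp1 was higher in both non-pigmented arrays (2.51), and Krt5 (-0.96) and Dsp (-0.63) were lower in both. The summed signal of the muscle markers was 2002 to 5529 in non-pigmented and 819 to 1012 in pigmented cells. Acta2 made up most of that sum, at 3674 and 1647 in non-pigmented and 644 and 603 in pigmented arrays. Myh11 and Cnn1 of that list were lower in both non-pigmented arrays, and neither was tested. The sum of keratinocyte markers was 915 to 1038, against 535 to 665 in pigmented cells. It was lower for fibroblast (1021 to 1196 against 1634 to 1711), immune (719 to 975 against 1120 to 1154) and endothelial markers (223 to 239 against 334 to 341). No marker was at 0 on any array. The part of these marker differences in the results below was not tested, and in bulk RNA fewer cells of a type and less RNA per cell cannot be told apart.

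Among the 42 tested members, 6 were called higher in non-pigmented cells and 0 lower at an adjusted p under 0.05 in limma. The called genes were Aldh1a3, Aldh1a7, Aldh1a1, Akr1c12, Akr1c13 and Cbr2, that is 14.3% of the tested members. Over all 12558 genes, 3.36% were called in either direction, 2.03% higher and 1.33% lower in non-pigmented cells. At an unadjusted p under 0.05 there were 13 members (31.0% of those tested), against 13.8% of all tested genes. By family, calls were 3 of 16 tested Aldh, 2 of 9 Akr, 1 of 2 Cbr, 0 of 12 Gst and 0 of 3 Mgst genes.

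The 6 calls are not 6 separate measurements. Akr1c12 and Akr1c13, and likewise Aldh1a1 and Aldh1a7, are close paralogues, and the files do not show how far the probe sets of one also bind RNA of the other. Of the 6, all but Aldh1a7 had a mean under the filter line (a signal of 70.7) in pigmented cells, so they were tested because of their signal in non-pigmented cells, and their folds depend on the offset of 16 added to the signal. The same holds for Mgst2, while Gstt1 and Akr1d1 had a mean under the line in non-pigmented cells.

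All differences below are in log2(signal + 16), non-pigmented minus pigmented, with limma's standard error. The median difference of the tested members was 0.21, against -0.07 for all tested genes, with 27 members positive and 15 negative, beside 5736 positive and 6822 negative over all genes. The members' split was 30 to 13 with quantile normalization and 33 to 9 with centring of each array on its median. Both non-pigmented arrays lay above both pigmented arrays for 12 members (28.6%), against 19.5% of all genes, and below them for 8 of the 42, against 24.4% of all genes. Median centring raised the difference of all genes by 0.24 at the median, and under it 8 members were called, the 6 above with Akr1cl and Aldh1l2.

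**Figure D1:**
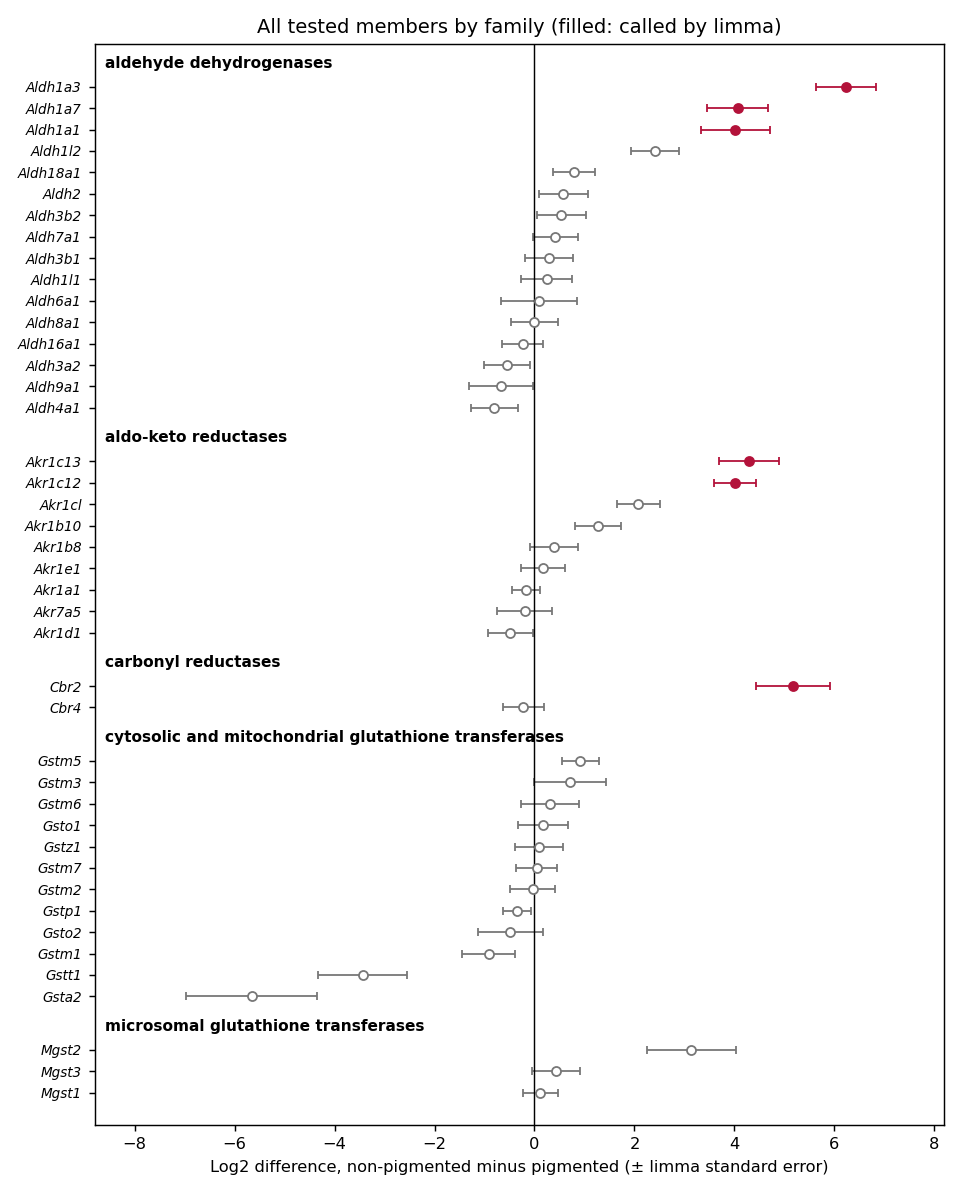
Log2 difference (non-pigmented minus pigmented, horizontal axis) of the 42 tested members, grouped by family, with limma's standard error as bars and called genes filled. The 6 filled points all lie right of 0, between 4.01 and 6.23, and the 2 points farthest left, Gsta2 at -5.66 and Gstt1 at -3.43, are open.

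The largest difference among the called members was that of Aldh1a3, which makes retinoic acid from retinaldehyde. It had a signal of 2785 and 1099 in non-pigmented replicates 1 and 2, against 15.1 and 1.86 in pigmented replicates 1 and 2. Both non-pigmented arrays were bright and both pigmented arrays were under the filter line. The difference was 6.23 ± 0.60, a 75-fold higher signal with the offset (adjusted p = 0.00702). It lay between 5.16 and 7.29 within the 2 title dates and was 6.49 within the low-ratio and 5.96 within the high-ratio pair of arrays.

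Aldh1a3 had 3 probe sets, and all were higher in non-pigmented cells, by 6.23, 3.93 and 2.23. The one with the smallest difference read 622 and 61.9 in non-pigmented arrays, against 70.8 and 10.1 in pigmented arrays, so that its groups overlapped. Averaging the 3 gave a difference of 4.13 that was no longer called (adjusted p = 0.0556), and neither was it with an offset of 1, which made another of its probe sets the brightest by mean (4.46, adjusted p = 0.0567).

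Aldh1a1, the cytosolic retinaldehyde dehydrogenase, had a signal of 217 and 806 in non-pigmented arrays, against 16.9 and 6.24 in pigmented arrays. Its difference was 4.02 ± 0.69, or 16.2-fold (adjusted p = 0.0369). Aldh1a7, its paralogue in rodents, read 1120 and 3416 in non-pigmented arrays, against 98.5 and 106 in pigmented arrays. It differed by 4.06 ± 0.61, or 16.7-fold (adjusted p = 0.0239), and was the called member whose mean pigmented signal was above the filter line. For both genes non-pigmented replicate 2 was the brighter array, and the groups did not overlap. Without non-pigmented replicate 2 the difference of Aldh1a1 was 3.11 and was not called (adjusted p = 0.115), nor was it called with no filter or with an offset of 64. Over all alternatives its adjusted p ran between 0.00692 and 0.115, and that of Aldh1a7 between 0.00761 and 0.0480.

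Aldh1a1 and Aldh1a7 are neighbours on chromosome 19. RefSeq's promoter table (GRCm38.p6) held 53 of the 62 members, 5 of the 6 called ones, with Aldh1a3 not among them. The 250 bases before the second listed start of Aldh1a1 and those before Aldh1a7 were identical at 94.8% of 174 aligned bases. They are shown because these are 2 called paralogues, both higher in non-pigmented cells. The capitals mark the longest run of identical bases, 65 long, from base -94 to base -30 relative to the start in both.
Aldh1a1 promoter, chr19:20601718-20601967, plus strand: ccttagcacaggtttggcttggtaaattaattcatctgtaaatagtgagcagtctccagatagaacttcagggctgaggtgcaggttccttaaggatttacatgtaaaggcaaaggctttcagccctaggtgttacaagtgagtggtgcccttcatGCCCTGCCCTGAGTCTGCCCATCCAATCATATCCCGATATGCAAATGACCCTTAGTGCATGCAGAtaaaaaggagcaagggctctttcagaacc
Aldh1a7 promoter, chr19:20727557-20727806, minus strand: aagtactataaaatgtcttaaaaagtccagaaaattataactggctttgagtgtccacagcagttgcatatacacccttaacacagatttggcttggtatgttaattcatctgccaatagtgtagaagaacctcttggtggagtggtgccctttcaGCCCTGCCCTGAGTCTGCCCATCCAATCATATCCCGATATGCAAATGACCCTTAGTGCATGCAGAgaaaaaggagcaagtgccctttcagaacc
Inside that shared run both sequences hold CCAAT at base -72 and the octamer ATGCAAAT at base -56. Searched on both strands, the octamer was in 1.6% of all 32851 promoters in the table and in 4 of the 64 promoters of members, while CCAAT was in 33.8% of all promoters and in 36 of the 64. The other listed start of Aldh1a1 shared 76.8% of 198 aligned bases with Aldh1a7, with no identical run over 8 bases. For scale, Akr1c12, of another family, was set against each promoter of Aldh1a1. They were identical at 71.4% of 140 and 70.7% of 133 aligned bases, with longest runs of 8 and 9. Only aligned bases are counted, so 76.8% is near what promoters of different families gave. These matches describe letters, not sites in use.

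The remaining retinaldehyde dehydrogenase, Aldh1a2, was too dim to be tested, at 98.8 and 2.22 in non-pigmented and 21.5 and 3.16 in pigmented arrays. In Aldh1a2 the groups overlapped. Aldh1b1, a mitochondrial member, was also too dim, at 11.3 and 33.1 in non-pigmented and 70.7 and 65.3 in pigmented arrays.

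The next aldehyde dehydrogenase by p was Aldh1l2, the mitochondrial formyltetrahydrofolate dehydrogenase of folate metabolism. Its signal was 4851 and 2614 in non-pigmented arrays, against 720 and 603 in pigmented arrays. The groups did not overlap, and the difference of 2.41 ± 0.48 missed the threshold (adjusted p = 0.0582). With the RNA integrity pair as a block its adjusted p was 0.0156, in a fit that called 7.04% of all genes, and with the title date as a block it was 0.131, in a fit that called 3.12%. The difference of Aldh1l2 was 2.53 without pigmented replicate 1 and 1.96 without non-pigmented replicate 1. Its cytosolic counterpart Aldh1l1 read 142 and 115 in non-pigmented arrays, against 155 and 70.1 in pigmented arrays (0.24 ± 0.51, adjusted p = 0.891).

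Enzymes of proline metabolism lay on either side of 0. Aldh18a1, which makes the proline precursor pyrroline-carboxylate, read 3987 and 5046 in non-pigmented arrays, against 2039 and 3261 in pigmented arrays (0.79 ± 0.42, adjusted p = 0.497). Aldh4a1, which breaks that intermediate down, read 246 and 132 in non-pigmented arrays, against 346 and 309 in pigmented arrays (-0.80 ± 0.47, adjusted p = 0.544). In both genes the groups did not overlap in the probe set used, and neither gene was called. The other probe sets of Aldh18a1 differed by 0.04 to 0.80, and in some of them the groups overlapped.

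Aldh2, the mitochondrial acetaldehyde dehydrogenase, read 4083 and 9931 in non-pigmented arrays, against 4445 and 4114 in pigmented arrays (0.57 ± 0.49, adjusted p = 0.717). The groups overlapped, and 1 array, non-pigmented replicate 2, stood above the others. Aldh9a1, of carnitine synthesis, read 2525 and 5415 in non-pigmented arrays, against 3395 and 10224 in pigmented arrays (-0.67 ± 0.64, adjusted p = 0.748). In this probe set of Aldh9a1 the 2 high-ratio arrays were brighter than the low-ratio arrays in both lines. Its second probe set went the other way, at 990 and 665 in non-pigmented and 1287 and 1057 in pigmented arrays (-0.51).

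Aldh3a2, the fatty aldehyde dehydrogenase, read 391 and 288 in non-pigmented arrays, against 636 and 388 in pigmented arrays (-0.55 ± 0.46, adjusted p = 0.712). Aldh3b2, which acts on lipid aldehydes, read 182 and 241 in non-pigmented arrays, against 192 and 99.4 in pigmented arrays (0.54 ± 0.49, adjusted p = 0.732). Neither was apart between the lines. The other 5 tested aldehyde dehydrogenases were Aldh3b1, Aldh6a1, Aldh7a1, Aldh8a1 and Aldh16a1, with differences from -0.24 to 0.42 and no call.

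**Figure D2:**
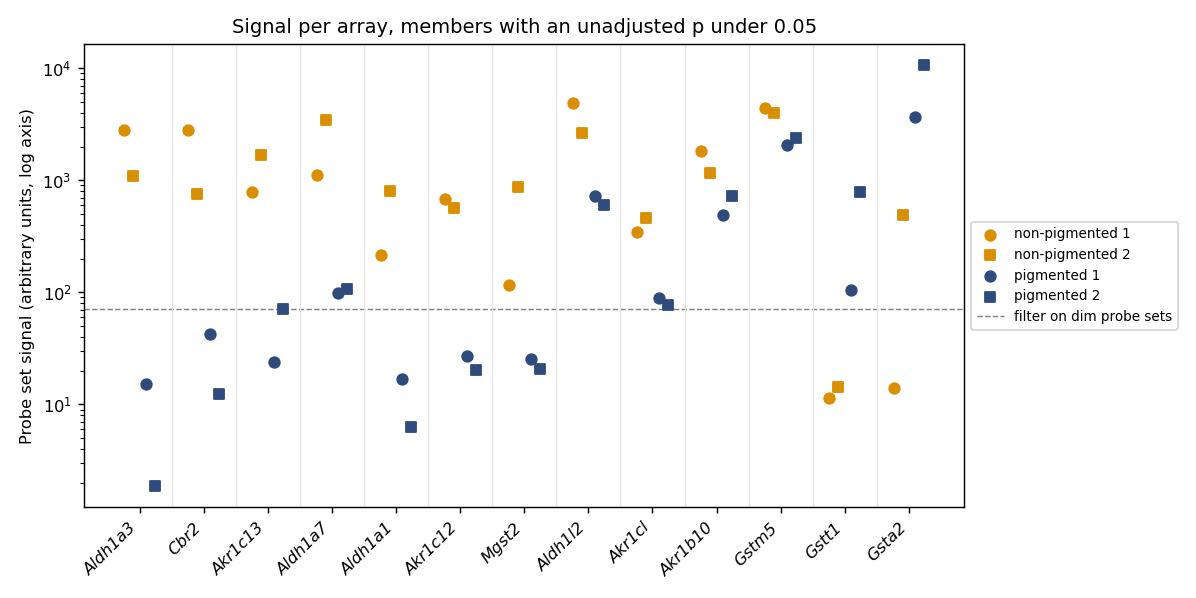
Probe set signal per array (log axis, arbitrary units) of the 13 members with an unadjusted p under 0.05, with non-pigmented arrays in orange, pigmented arrays in blue, replicate 1 as circles and replicate 2 as squares, and the filter line at 70.7 dashed. The 6 called members are bright in both non-pigmented arrays, while Gsta2 and Gstt1 are brighter in the pigmented arrays.

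Akr1c12 and Akr1c13 belong to the Akr1c subfamily of aldo-keto reductases, whose enzymes reduce keto groups of steroids and other carbonyls. The signal of Akr1c12 was 677 and 568 in non-pigmented arrays, against 26.9 and 20.2 in pigmented arrays. Akr1c13 read 781 and 1665 in non-pigmented arrays, against 23.8 and 71.1 in pigmented arrays. In both genes every non-pigmented array was several times brighter than either pigmented array. The differences were 4.01 ± 0.43 for Akr1c12 (16.1-fold, adjusted p = 0.00853) and 4.30 ± 0.60 for Akr1c13 (19.7-fold, adjusted p = 0.0188).

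The difference of Akr1c12 was the same within the low-ratio and the high-ratio pair, 4.01 in each, and it was called in all 15 alternatives that tested it. That of Akr1c13 was 4.32 and 4.27 within those pairs, and 3.19 and 5.40 within the title dates. Without non-pigmented replicate 2 Akr1c13 was at 3.76 and was not called (adjusted p = 0.0512).

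The Akr1c genes stand in a row on chromosome 13, in the order Akr1c14, Akr1c18, Akr1c13, Akr1c19, Akr1c12, Akr1c6, Akr1c20 and Akr1c21, followed by Akr1e1. The 6 members of this row other than Akr1c12, Akr1c13 and Akr1e1 were too dim to be tested. Akr1c19, which lies between the 2 called genes, read 21.0 and 67.7 in non-pigmented arrays, against 124 and 106 in pigmented arrays. Akr1c21 likewise was lower in both non-pigmented arrays, at 17.7 and 63.1, against 74.0 and 153 in pigmented arrays. The difference was -1.23 for Akr1c19 and -1.26 for Akr1c21, opposite in sign to the 2 called genes, at signals near the filter line.

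Akr1c18, the hydroxysteroid dehydrogenase that inactivates progesterone, read 14.5 and 104 in non-pigmented arrays, against 21.1 and 14.6 in pigmented arrays, with overlap. Akr1c6, a hydroxysteroid dehydrogenase of the mouse liver, was under 10 on every array (5.76 and 9.80 in non-pigmented, 8.27 and 9.42 in pigmented arrays). At the end of the row, Akr1e1 read 601 and 380 in non-pigmented arrays, against 420 and 426 in pigmented arrays (0.17 ± 0.44, adjusted p = 0.913).

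**Figure D3:**
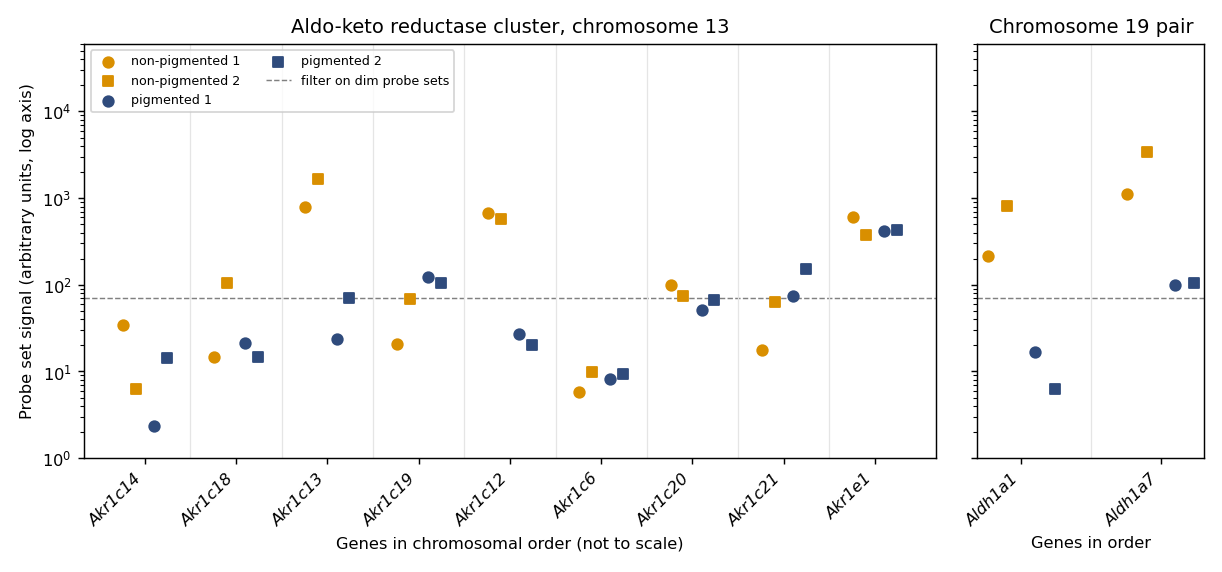
Probe set signal per array (log axis, arbitrary units) of the genes in the aldo-keto reductase row on chromosome 13, in gene order and not to scale (left), and of the neighbours Aldh1a1 and Aldh1a7 on chromosome 19 (right). In the row, Akr1c13 and Akr1c12 have both non-pigmented arrays far above the filter line of 70.7, and Akr1c19 between them does not.

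The promoters of the 2 called Akr1c genes were closer to each other than to the other Akr1c promoters they were set against. Over the 250 bases before the start they were identical at 95.5% of 246 aligned bases. Akr1c12 and Akr1c19 were identical at 82.8% of 186 aligned bases, and Akr1c13 and Akr1c18 at 72.3% of 195. The last value is near the 71.4% and 70.7% of Akr1c12 against the promoters of Aldh1a1, a gene of another family. The promoters of Akr1c12 and Akr1c13 are printed as the second set of called paralogues, both higher in non-pigmented cells. Between replicates 1 and 2 of either line, the signal of Akr1c12 fell and that of Akr1c13 rose. The longest identical run of 75 bases is in capitals (base -152 to base -78 relative to the start of Akr1c12, and -155 to -81 for Akr1c13).
Akr1c12 promoter, chr13:4279400-4279649, minus strand: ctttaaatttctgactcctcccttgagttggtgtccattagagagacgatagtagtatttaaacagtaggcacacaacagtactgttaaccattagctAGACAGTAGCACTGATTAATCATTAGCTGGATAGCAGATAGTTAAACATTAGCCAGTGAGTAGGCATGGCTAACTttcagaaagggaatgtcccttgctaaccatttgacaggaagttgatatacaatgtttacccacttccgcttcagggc
Akr1c13 promoter, chr13:4190937-4191186, plus strand: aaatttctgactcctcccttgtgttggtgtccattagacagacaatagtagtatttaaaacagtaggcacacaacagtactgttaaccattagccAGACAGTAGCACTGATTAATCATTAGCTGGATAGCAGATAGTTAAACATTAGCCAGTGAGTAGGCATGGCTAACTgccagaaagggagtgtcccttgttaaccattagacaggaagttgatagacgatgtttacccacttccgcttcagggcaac
The longest run that Akr1c12 shared with Akr1c19 was 10 bases. None of the 7 motifs searched was in either sequence. The core of the antioxidant response element, TGACNNNGC, is bound by NRF2. It was in 0 of the 6 promoters of called members, in 10.9% of the 64 promoters of members and in 10.2% of all promoters. Those 6 promoters belong to 5 of the 6 called members, since Aldh1a1 has more than 1 and Aldh1a3 has none. With 6 promoters, 0 is near the share over all promoters. The E-box CATGTG, bound by MITF, was in 1 of these 6 (Cbr2, at base -163), in 9.38% of members' promoters and in 12.3% of all. Absence says only that these letters are not in this window.

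Beyond the row, Akr1cl, an Akr1c-like gene on chromosome 1, read 343 and 464 in non-pigmented arrays, against 88.5 and 76.4 in pigmented arrays. The groups were apart, and the difference of 2.08 ± 0.43 missed the threshold (adjusted p = 0.0663). With the RNA integrity pair as a block its adjusted p was 0.0413, and with the title date as a block 0.139. Centring each array on its median gave 2.32 and a call (adjusted p = 0.0484).

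The Akr1b genes are related to aldose reductase. Akr1b10 read 1813 and 1170 in non-pigmented arrays, against 494 and 717 in pigmented arrays (1.27 ± 0.47, adjusted p = 0.295). Another of its probe sets read 566 and 490 in non-pigmented arrays, against 334 and 810 in pigmented arrays, a difference of 0.01. The probe sets of Akr1b10 therefore disagreed in size. Akr1b8 read 553 and 284 in non-pigmented arrays, against 281 and 319 in pigmented arrays (0.39 ± 0.48, adjusted p = 0.808). Akr1b3 and Akr1b7 were not analysed here.

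Akr1a1, the broad aldehyde reductase, was bright on every array, at 14967 and 19698 in non-pigmented and 17781 and 21204 in pigmented arrays (-0.18 ± 0.28, adjusted p = 0.858). Akr7a5, which reduces aflatoxin dialdehyde and succinate semialdehyde, read 1065 and 2664 in non-pigmented arrays, against 1770 and 2121 in pigmented arrays (-0.20 ± 0.54, adjusted p = 0.920). Akr1d1, the steroid beta-reductase of bile acid synthesis, was at the filter line, with 54.5 and 66.5 in non-pigmented and 94.9 and 86.3 in pigmented arrays (-0.48 ± 0.44, adjusted p = 0.736). No call was made in these 3 genes.

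Among the carbonyl reductases, Cbr2, which is known as a mitochondrial enzyme of mouse lung, differed most. It read 2822 and 748 in non-pigmented arrays, against 42.6 and 12.5 in pigmented arrays. Both pigmented arrays were under the filter line, and non-pigmented replicate 1 was the brightest array. The difference was 5.17 ± 0.73, or 36-fold (adjusted p = 0.0203), and it was called in all 16 alternatives, with adjusted p between 0.00152 and 0.0367. Cbr4, a reductase of mitochondrial fatty acid synthesis, read 803 and 809 in non-pigmented arrays, against 944 and 941 in pigmented arrays. The replicates of Cbr4 lay close together, and its difference was -0.22 ± 0.41 (adjusted p = 0.876). The cytosolic carbonyl reductases Cbr1 and Cbr3 were too dim to be tested, with 53.9 and 144 (Cbr1) and 11.6 and 19.4 (Cbr3) in non-pigmented arrays, against 8.96 and 114 (Cbr1) and 12.8 and 8.88 (Cbr3) in pigmented arrays.

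No glutathione transferase was called among 12 tested in limma, beside 3.36% of all tested genes called. With so few genes, 0 calls is near that share. Of the 12, 3 had an unadjusted p under 0.05, beside 13.8% of all tested genes. The median difference of the 12 was 0.00, with 6 positive and 6 negative. The alpha-class gene Gsta2 had the most negative difference of all members. It read 13.9 and 493 in non-pigmented arrays, against 3634 and 10659 in pigmented arrays. Every pigmented array was several times above the brighter non-pigmented array, and the 2 non-pigmented arrays were far apart from each other.

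The difference of Gsta2 was -5.66 ± 1.30, with a 50.6-fold higher signal in pigmented cells, and it missed the threshold (adjusted p = 0.0928). Within the title dates it was -8.48 and -2.84, and within the low-ratio and high-ratio pairs -6.93 and -4.39. With the RNA integrity pair as a block the adjusted p was 0.0104, and with the title date as a block 0.0214. The difference of Gsta2 was -3.62 without non-pigmented replicate 1, and it kept its sign in all 15 alternatives that tested it. A second probe set, annotated to Gsta2, Gsta1 and Gm3776 together and so not counted among the members, read 170 and 667 in non-pigmented arrays, against 5332 and 10603 in pigmented arrays, a difference of -4.40. RNA of these near-identical alpha-class genes could not be told apart. The other alpha-class members were too dim to be tested: Gsta3 read 61.0 and 31.4 in non-pigmented arrays, against 3.76 and 7.90 in pigmented arrays, and Gsta4 did not pass 15.2 on any array.

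The theta-class gene Gstt1 read 11.4 and 14.3 in non-pigmented arrays, against 105 and 788 in pigmented arrays. Both non-pigmented arrays were under the filter line, and the pigmented arrays differed widely between themselves. The difference was -3.43 ± 0.89 (adjusted p = 0.131), with an adjusted p of 0.0369 when the title date was a block and 0.0578 when the RNA integrity pair was. Without pigmented replicate 1 the difference was -4.80 and without pigmented replicate 2 it was -2.07. The neighbours of Gstt1 on chromosome 10 were too dim to be tested, with no signal above 54 on any array. Their differences were -0.13 for Gstt3, -0.33 for Gstt4 and -1.32 for Gstt2. At these signals a difference could not be separated from background.

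The mu-class genes form a row on chromosome 3, with Gstm5 at one end and Gstm4 at the other. Gstm5 read 4393 and 4018 in non-pigmented arrays, against 2083 and 2378 in pigmented arrays. The replicates lay close together, the groups were apart, and the difference was 0.91 ± 0.37 (adjusted p = 0.352). Gstm1, near the other end, read 3224 and 1380 in non-pigmented arrays, against 4925 and 3248 in pigmented arrays (-0.92 ± 0.53, adjusted p = 0.542). Its 4 probe sets were all negative, from -0.95 to -0.68.

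Between Gstm5 and Gstm1, Gstm2 read 3563 and 2694 in non-pigmented arrays, against 4240 and 2369 in pigmented arrays (-0.03 ± 0.45, adjusted p = 0.988). Gstm3 read 137 and 222 in non-pigmented arrays, against 217 and 42.3 in pigmented arrays (0.71 ± 0.73, adjusted p = 0.766). Gstm6 differed by 0.32 and Gstm7 by 0.04, with no call. A second probe set of Gstm7 read 317 and 588 in non-pigmented arrays, against 186 and 108 in pigmented arrays, a difference of 1.5, so the 2 probe sets of this gene disagreed. The mu-class genes are similar in sequence, and probe sets may not separate them. Gstm4, too dim to be tested, differed by -0.81.

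Gstp1, the pi-class enzyme that is the major glutathione transferase of many cultured cells, was bright in all arrays. It read 13676 and 15524 in non-pigmented arrays, against 16209 and 21393 in pigmented arrays (-0.35 ± 0.28, adjusted p = 0.686). The groups were apart by a small step. Gstp3 was too dim to be tested, and Gstp2 was not analysed here. The omega-class enzyme Gsto1, which reduces thiol adducts and dehydroascorbate, read 3844 and 6271 in non-pigmented arrays, against 2969 and 6411 in pigmented arrays (0.17 ± 0.50, adjusted p = 0.928), and Gsto2 differed by -0.48 ± 0.65 (adjusted p = 0.832). Gstz1, which isomerises maleylacetoacetate in tyrosine breakdown, read 373 and 225 in non-pigmented arrays, against 346 and 213 in pigmented arrays (0.09 ± 0.48, adjusted p = 0.968). Gstk1, the kappa-class enzyme of mitochondria and peroxisomes, was too dim to be tested, at 70.4 and 50.6 in non-pigmented and 18.7 and 37.6 in pigmented arrays.

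The microsomal transferases are membrane proteins of a separate family. Mgst2, which can make leukotriene C4, read 117 and 867 in non-pigmented arrays, against 25.5 and 20.6 in pigmented arrays. Both pigmented arrays were under the filter line, and non-pigmented replicate 2 carried most of the difference of 3.14 ± 0.89 (adjusted p = 0.163). It was 1.68 within the low-ratio and 4.59 within the high-ratio pair, and its adjusted p was 0.0487 with the title date as a block. Without non-pigmented replicate 1 it was 4.50 (adjusted p = 0.0160), and without non-pigmented replicate 2 it was 1.77 (adjusted p = 0.486). Mgst1 read 5433 and 5986 in non-pigmented arrays, against 4526 and 6086 in pigmented arrays (0.12 ± 0.35, adjusted p = 0.926). Mgst3 read 1048 and 540 in non-pigmented arrays, against 602 and 513 in pigmented arrays (0.43 ± 0.49, adjusted p = 0.792). Neither Mgst1 nor Mgst3 was apart between the lines.

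The 20 members that were not tested had differences between -1.49 and 1.47, and no signal above 153 on any array. Those with the widest gaps were Aldh3a1, an aldehyde dehydrogenase of the cornea, at 19.1 and 14.6 in non-pigmented and 124 and 44.2 in pigmented arrays, and Gsta3. Aldh5a1, the succinate semialdehyde dehydrogenase that ends GABA breakdown, read 18.1 and 104 in non-pigmented arrays, against 44.5 and 43.1 in pigmented arrays. At these signals a difference could not be separated from background, since the files used here hold no detection call.

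**Figure D4:**
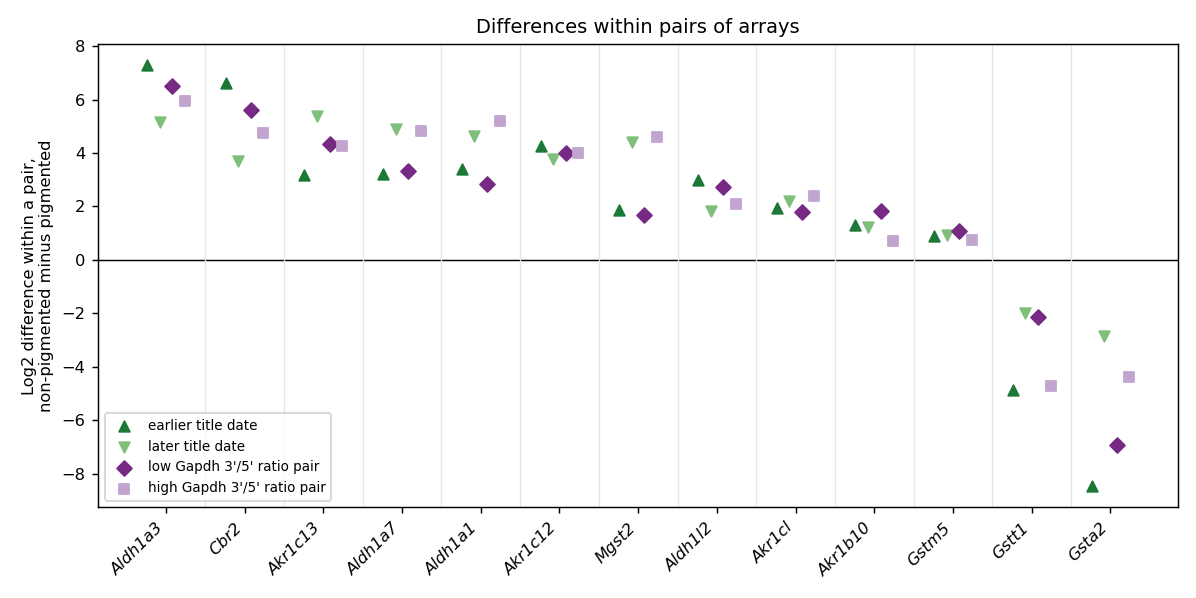
Log2 difference (non-pigmented minus pigmented, vertical axis) within each pair of arrays for the 13 members with an unadjusted p under 0.05, with green triangles for the 2 title dates and purple symbols for the pairs with a low or a high Gapdh 3′/5′ ratio. All 4 values of every member lie on the same side of 0, and those of Gsta2 spread most, from -8.48 to -2.84. The 4 values are the differences between each non-pigmented and each pigmented array, so a shared side means only that the groups did not overlap. The members were picked by p from the same arrays, so the shared side is no further evidence.

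With the RNA integrity pair as a block, 8 members were called higher and 1 lower in non-pigmented cells (the 6 above, Akr1cl and Aldh1l2, and lower Gsta2), beside 7.04% of all genes called. With the title date as a block, 7 were called higher and 2 lower (the 6 above and Mgst2, and lower Gsta2 and Gstt1), beside 3.12% of all genes. The labels give the dates in the titles and do not say what they mark. Each block leaves 1 residual degree of freedom per gene.

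The enzymes around these families were read from the same fit in 5 lists. Of 98 genes, 86 were on the array and 70 were tested. Of these, 4 were called higher and 1 lower in non-pigmented cells, with a median difference of 0.06. Over all 12558 tested genes, 2.03% were called higher and 1.33% lower, with a median difference of -0.07. Of 11 tested genes of conjugate export and mercapturate formation, 2 were called higher and 0 lower (median 0.40). Abcg2, an efflux pump of drugs and conjugates, read 3446 and 2986 in non-pigmented arrays, against 681 and 564 in pigmented arrays (2.34 ± 0.41, adjusted p = 0.0387). Ggt7, a member of the gamma-glutamyl transferase family, read 1012 and 717 in non-pigmented arrays, against 144 and 147 in pigmented arrays (2.42 ± 0.42, adjusted p = 0.0386). The replicates of both genes were close, and their calls were lost with the title date as a block (adjusted p = 0.132 for Abcg2 and 0.0903 for Ggt7). They were also lost without either non-pigmented array, with adjusted p of 0.220 and 0.181 for Abcg2 and 0.196 and 0.0992 for Ggt7, and that of Abcg2 without pigmented replicate 2 (0.0739). With no filter Ggt7 was not called (adjusted p = 0.0749).

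The next genes of that list were not called. Acy3, a deacylase of mercapturates, read 403 and 322 in non-pigmented arrays, against 117 and 69.9 in pigmented arrays (1.81 ± 0.45, adjusted p = 0.118). Chac1, which degrades glutathione, read 463 and 285 in non-pigmented arrays, against 775 and 1822 in pigmented arrays (-1.67 ± 0.56, adjusted p = 0.248). Abcc1, the main exporter of glutathione conjugates, read 2490 and 3252 in non-pigmented arrays, against 1422 and 1749 in pigmented arrays (0.85 ± 0.41, adjusted p = 0.455).

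Of 15 tested genes of alcohol, epoxide and glyoxal detoxification, 1 was called higher and 0 lower (median -0.06). Aox1, the aldehyde oxidase, read 613 and 1372 in non-pigmented arrays, against 72.4 and 73.3 in pigmented arrays (3.40 ± 0.52, 10.5-fold, adjusted p = 0.0252). Its pigmented arrays were at the filter line, and it was called in 15 of 16 alternatives, the exception being without non-pigmented replicate 2 (2.82, adjusted p = 0.0866). The next by p were Khk, the fructose kinase (2.19, adjusted p = 0.129), Ephx1, the microsomal epoxide hydrolase (-1.54, adjusted p = 0.178), and Dcxr, which reduces dicarbonyls and xylulose (-0.79, adjusted p = 0.496). With the RNA integrity pair as a block, in a fit that called 7.04% of all genes, Khk was called (adjusted p = 0.0382). Without pigmented replicate 2 the difference of Khk was 2.88. Ephx1 read 4553 and 2151 in non-pigmented arrays, against 8874 and 9394 in pigmented arrays.

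NRF2 is the factor that induces many glutathione transferases. Of 20 tested NRF2 regulators and targets outside the member families, 0 were called by limma in either direction or with either block (median 0.20). At an unadjusted p under 0.05 there was 1 gene, against 13.8% of all tested genes. That gene was Ugdh, which makes UDP-glucuronate, at 6135 and 7080 in non-pigmented arrays, against 3589 and 1795 in pigmented arrays (1.37 ± 0.45, adjusted p = 0.235). Slc7a11 and Nqo1 of this list were too dim to be tested. Slc7a11 read 125 and 106 in non-pigmented arrays, against 4.12 and 13.8 in pigmented arrays, a difference of 2.42. In limma with no filter its adjusted p was 0.0861. Nqo1 differed by 0.33, with overlap. Of 12 tested folate, proline and GABA enzymes that share substrates with Aldh members, 0 were called in the same fit (median -0.16). Among them 1 had an unadjusted p under 0.05, beside the same 13.8% of all tested genes. Prodh, the proline dehydrogenase upstream of Aldh4a1, read 149 and 326 in non-pigmented arrays, against 878 and 586 in pigmented arrays (-1.63 ± 0.53, adjusted p = 0.230).

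Of 12 tested genes of retinoid supply and response, 1 was called higher and 1 lower (median 0.05). Cyp26b1, the enzyme that degrades retinoic acid, read 620 and 373 in non-pigmented arrays, against 23.0 and 40.3 in pigmented arrays (3.41 ± 0.49, adjusted p = 0.0204). Rarb, a retinoic acid receptor, read 84.9 and 31.5 in non-pigmented arrays, against 616 and 814 in pigmented arrays (-3.39 ± 0.52, adjusted p = 0.0265). Both are known targets of retinoic acid, and they differed in opposite directions between the lines. Both calls remained with the title date as a block (adjusted p = 0.0127 for Cyp26b1 and 0.0150 for Rarb). Each gene had a mean under the filter line in the line where it was lower, so it was tested because of its signal in the other line. With no filter Rarb was not called (adjusted p = 0.0533). The call of Cyp26b1 was lost without non-pigmented replicate 1 (3.05, adjusted p = 0.0914), and that of Rarb without non-pigmented replicate 2 (-2.84, adjusted p = 0.0863). Rdh10, which makes retinaldehyde from retinol, read 359 and 368 in non-pigmented arrays, against 394 and 405 in pigmented arrays (-0.13 ± 0.40, adjusted p = 0.930). Dhrs3, which turns retinaldehyde back to retinol, read 181 and 1757 in non-pigmented arrays, against 505 and 8861 in pigmented arrays (-1.86 ± 1.52, adjusted p = 0.698), and here the high-ratio array of each line was far brighter than the low-ratio one. With the RNA integrity pair as a block Dhrs3 was called lower (adjusted p = 0.0422). Rdh10 and Dhrs3 were named after their values were seen.

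**Figure D5:**
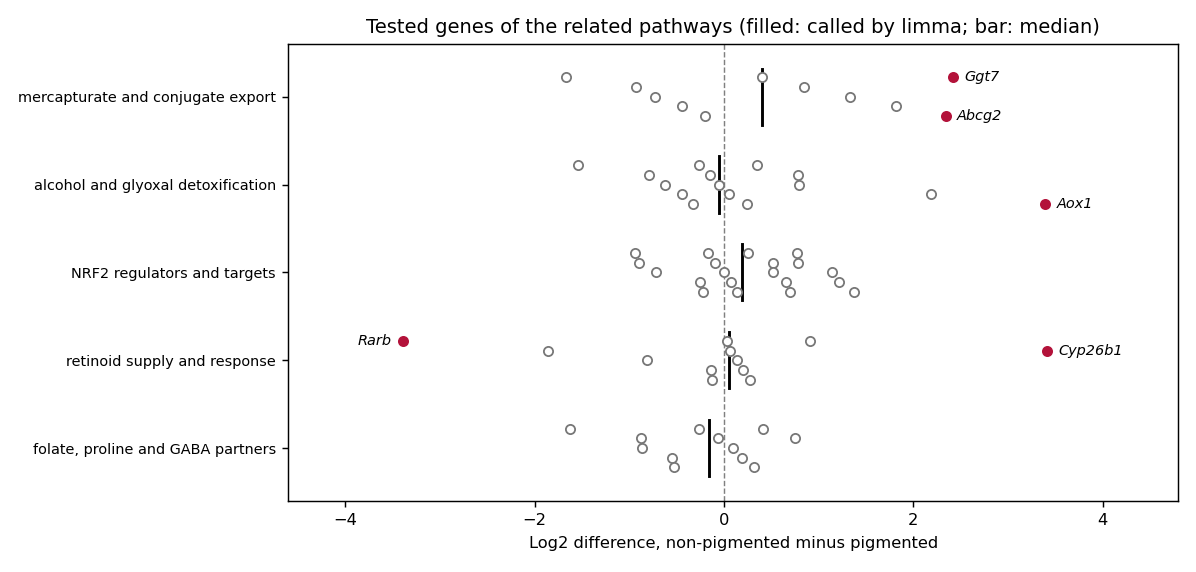
Log2 difference (non-pigmented minus pigmented, horizontal axis) of the 70 tested genes in 5 related lists, 1 row per list, with called genes filled and named and the median of each list as a bar. The medians lie between -0.16 and 0.40, and 5 genes are filled, Rarb left of 0 and Cyp26b1, Aox1, Ggt7 and Abcg2 right of it.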

How the data were processed

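RNA of 2 non-pigmented and 2 pigmented arrays was used as deposited: the authors' intensity values per probe set on a linear scale, made with Affymetrix Expression Console per the submitters' processing notes (version and summary algorithm: not given in the sources used here). Within every column the mean after trimming 2% at either end was 500. Of 45101 probe sets, 64 controls were left out, and 34945 had 1 symbol in the platform annotation, 932 several and 9160 none. Through the Entrez number 34741 matched RefSeq, and 0 symbols changed. Each gene was read from its probe set with the highest mean. Genes under the 40th percentile of mean log2 signal over all non-control probe sets (6.44, a signal of 70.7) were left out, 5635 of 18193 genes.

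Computed from these were differences of log2(signal + 16), which limma 3.58.1 (R 4.3.3) tested by lmFit and eBayes with trend and no block, with p-values adjusted by Benjamini-Hochberg over 12558 genes. With 2 arrays against 2 the smallest two-sided exact permutation p is 0.333, and the number of arrays limits the precision. Replicate numbers only name arrays. Deviations from the line means correlated at 0.51 between arrays of the same RNA integrity class (Gapdh ratio over 3 or not). With 2 arrays per line, the value for the same title date is its mirror image, -0.51, and not a second result. Why the deviations correlated was not tested. The dates were not taken to pair the arrays, and both blocks are alternatives. Other alternatives were quantile normalization, median centring, 2 filters, 2 spread estimates, 2 choices of probe sets, 2 offsets and leaving out each array.

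Members, lists and alternatives were chosen with earlier results of these data known. Described array by array were called members, up to 6 further tested members of each family by smallest p, the 8 brightest members, and in each list the called genes and up to 3 more by p. Further names were added once values were known. The scripts were tested on simulated data. Promoters, the 250 bases before each start, came from RefSeq (GRCm38.p6) and were aligned with Biopython 1.88; figures were drawn with matplotlib 3.10.9.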

Additional observations from a re-analysis of the deposited data

Results flagged for a closer look

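A probe set annotated to both Akr1c12 and Akr1c13 was left out of the comparisons because it names 2 genes. It read 1444 and 1222 in the non-pigmented arrays, against 94.0 and 58.7 in the pigmented arrays. Every non-pigmented array was above every pigmented array, and the log2 difference, non-pigmented minus pigmented, was 3.89, a value that was not tested. With 2 arrays per line, a single array far from the others of its line could not be looked for.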

How the results depend on the processing

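The 6 called members kept their direction in every one of the 16 alternatives that tested them. The number of members called was 9 with the title date as a replicate block and 9 with the RNA integrity pair as a block, 4 with a filter at the 60th percentile (which leaves out Akr1c12 and Aldh1a1) and 5 to 9 without 1 array. The 5 calls in the related lists became 7 with the RNA integrity pair as a block (Dhrs3 and Khk in addition), 3 with the title date as a block, 3 with no filter, and 1 to 5 without 1 array, with Cyp26b1 the call left without non-pigmented replicate 2 and Aox1 and Rarb without non-pigmented replicate 1. The 422 calls over all genes became 884 with the RNA integrity pair as a block, and 234 to 772 without 1 array, lowest without non-pigmented replicate 2 and highest without pigmented replicate 1. The block on the title date gave 392. Why these counts move was not tested. Of the 24 uncalled members that the naming rule took (smallest p or brightest), 10 changed sign in at least 1 alternative. In the fits without 1 array, the remaining array of a line is assumed to vary like the other line. Differences within the low-ratio or the high-ratio arrays were added after the data were seen. Signals near the filter line cannot be separated from background.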

Other observations

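Aldh2 had 5 probe sets, of which 2 were far brighter in the arrays with a high Gapdh 3′ to 5′ ratio of both lines. The first read 443 and 5483 in non-pigmented arrays, against 500 and 6509 in pigmented arrays, and the second 477 and 6605 in non-pigmented arrays, against 488 and 7252 in pigmented arrays. The probe set used for the gene read 4083 and 9931 in non-pigmented arrays, against 4445 and 4114 in pigmented arrays.

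Of 2 probe sets annotated to Aldh3b2 and Aldh3b3 together, 1 differed by 0.41 and the other by -0.96 (non-pigmented minus pigmented, log2), neither tested.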
